A study of Mus musculus with 6 samples.

Results

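Wnt signalling was followed in lung endothelial cells (ECs) through 10 genes, taken by their symbols. They were the Frizzled and LRP receptors Fzd4, Fzd6, Lrp5 and Lrp6, the transcription factor Lef1, the β-catenin targets Axin2, Apcdd1 and Nkd1, and the secreted antagonists Sfrp1 and Frzb. Every probe set that the array annotation assigned to exactly 1 of these symbols was taken, which gave 30 probe sets of 10 genes among 45101 probe sets and 18194 genes on the array. ECs came from NSG mice, an immunodeficient strain without mature lymphocytes, which were 6 to 8 weeks of age and had received MDA-MB-231-LM2 cells through a vein. These cells are a human breast cancer line selected for lung metastasis. In the shControl group (3 arrays) the cancer cells carried a control hairpin, and in the shTNC group (3 arrays) a hairpin against tenascin C (TNC), a matrix glycoprotein. All mice of both groups thus carried lung metastases, and no group without cancer cells was analysed here. Lungs were taken at day 20, labelled as 3 weeks after injection. ECs were sorted from whole lungs as CD31+ cells negative for CD45, CD11b, EpCAM, CD140a, CD140b and the GFP of the cancer cells, so that vessels near and far from metastases were measured together. The labels call the arrays biological replicates, and the number of mice behind each is not given in the sources used here. The comparison addressed whether Wnt pathway genes of the lung endothelium differed when the cancer cells around it made less TNC. The study reports that TNC knockdown repressed lung colonisation by these cells. Less TNC and a smaller metastatic burden therefore cannot be told apart in this comparison.

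A Wnt ligand bridges a Frizzled receptor and the co-receptor Lrp5 or Lrp6, which inactivates the Axin-containing complex that otherwise marks β-catenin for destruction. β-catenin then enters the nucleus, binds TCF/LEF factors such as Lef1, and switches on targets, several of which (Axin2, Nkd1, Apcdd1) dampen the pathway in turn. Secreted proteins of the SFRP family, among them Sfrp1 and Frzb, hold Wnt ligands away from their receptors. In ECs the pathway is best known from the blood vessels of brain and retina, where Fzd4 with Lrp5 or Lrp6 and the helper Tspan12 receives Norrin and supports vessel growth and the barrier.

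The values are log2 signals, normalised by the authors with robust multiarray averaging (RMA), and a difference of 1 is a doubling. Of all probe sets, 67.1% had a mean above 7.48, the level under which 95% of the 43 olfactory receptor probe sets lay, which is used here as the background level. The 15 pan-endothelial genes averaged 13.37 to 13.42 in every array and had a median difference of 0.00084 between groups, with 0 of 15 at an unadjusted p under 0.05. Of the lists for kinds of ECs, the general capillary genes averaged 13.26 to 13.29 in shControl and 13.35 to 13.37 in shTNC. The arterial genes averaged 12.26 to 12.39 in shControl and 12.39 to 12.48 in shTNC. The aerocyte, venous and lymphatic lists overlapped between groups. Of the markers gated out, Pdgfra (CD140a, 8.74 to 9.65), Pdgfrb (CD140b, 8.53 to 9.24) and Ptprc (CD45, 7.65 to 8.73) were above background in every array, Epcam (7.45 to 7.92) lay around it, and Itgam (CD11b, 6.34 to 7.07) was under it in every array. The 12 macrophage genes averaged 9.31 to 9.39 in shControl and 9.05 to 9.25 in shTNC, with 10 of 12 lower by sign and 3 at an unadjusted p under 0.05, and the 7 mesothelium genes averaged 7.94 to 8.05 in shControl and 7.88 to 9.03 in shTNC, highest in shTNC replicate 1. The part of these cells in the results was not tested. The array labelled shControl replicate 2 stood apart from the other 5 on the first principal component, at -43.6 against -11.1 to 21.1. Mouse Tnc was 8.18 to 8.77 in shControl and 8.14 to 8.37 in shTNC, but the hairpin targeted the human gene in the cancer cells, so a mouse array cannot check it.

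None of the 30 probe sets passed the test at an adjusted p under 0.05 (limma, Benjamini-Hochberg over all probe sets), where the background over all probe sets was 0%. An unadjusted p under 0.05 was found for 11 of the 30, compared with 13.0% of all probe sets. Of these, 5 were lower in shTNC, where 6.30% of all probe sets were, and 6 were higher, where 6.66% of all were. Without shControl replicate 2, the array that stood apart, 4 were lower and 6 higher. The groups did not overlap for 12 of the 30, compared with 19.4% of all probe sets. The probe sets called belong to few genes and are not independent of each other: 4 of the 5 lower ones were of Apcdd1 and 3 of the 6 higher ones of Sfrp1. With the brightest probe set of each gene, 3 of 10 genes had an unadjusted p under 0.05, compared with 11.7% of all genes, and these were Lrp5, Axin2 and Sfrp1. A looser limit of adjusted p under 0.25 took 1 of the 30 (a probe set of Sfrp1) and 2.19% of all probe sets. With a difference over 0.75 asked for in addition, 0 of the 30 passed, and 0.182% of all did. The median difference of the 30 was 0.05, beside -0.01 over all probe sets. The 10 genes were chosen with earlier results of these data known. Their counts beside the shares over all probe sets and genes are therefore description and no independent support. As in any measurement on pooled cells, fewer cells of a type and less RNA per cell cannot be told apart.

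**Figure D1:**
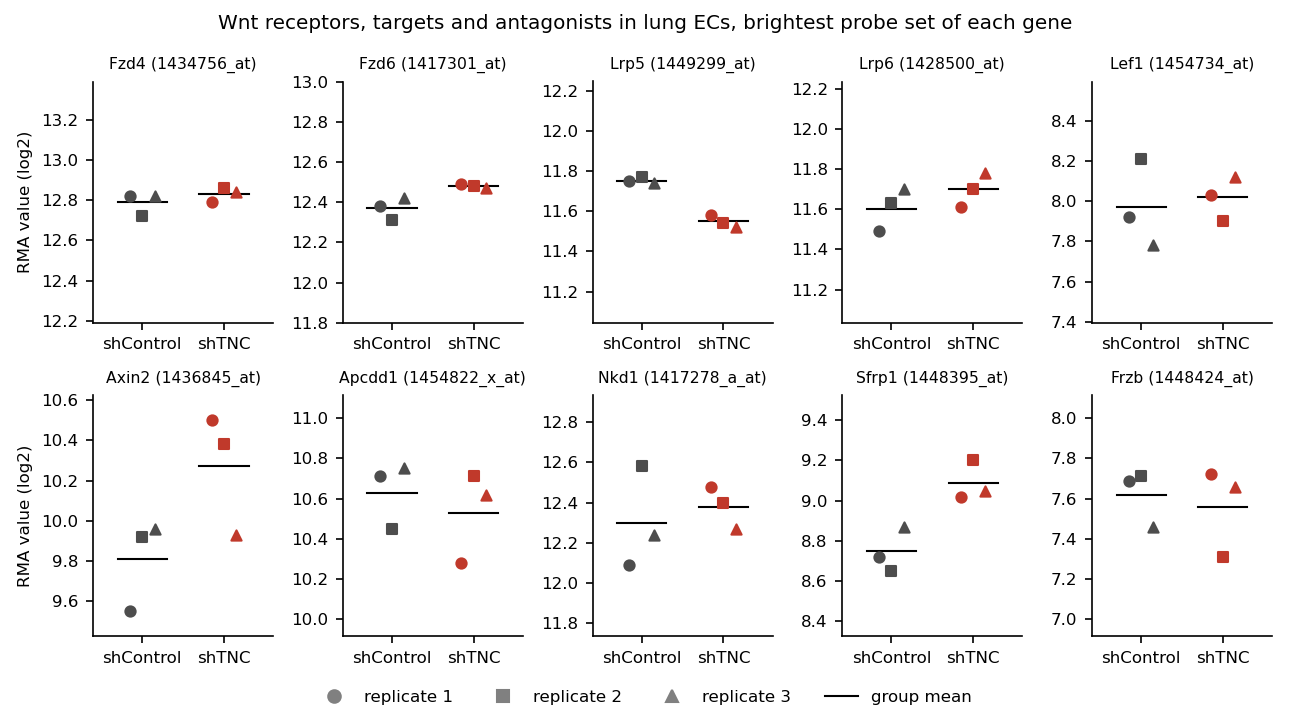
RMA values (log2, y axis, each panel spanning 1.2 log2 units) of the brightest probe set of each of the 10 genes in the 3 shControl (grey) and 3 shTNC (red) arrays, with marker shapes for replicates and black lines for group means. Lrp5 lies lower in all 3 shTNC arrays, Fzd6 and Sfrp1 lie higher in all 3, and the other 7 genes overlap between groups.

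Among the receptors, Fzd4 differed little between groups. Fzd4 is the Frizzled through which Norrin acts on ECs. Its brightest probe set (1434756_at) read 12.82, 12.72 and 12.82 in shControl and 12.79, 12.86 and 12.84 in shTNC. The groups overlapped, and the difference (shTNC minus shControl, as throughout) was 0.04 ± 0.08 (SE, 3 arrays per group), with a 95% interval from -0.15 to 0.23. Its other probe sets differed by -0.01 and -0.07, with intervals from -0.22 to 0.19 and from -0.31 to 0.16. All 3 intervals thus lay within 0.31 of 0 on the log2 scale.

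Fzd6, a Frizzled known mainly for planar cell polarity, was 12.38, 12.31 and 12.42 in shControl and 12.49, 12.48 and 12.47 in shTNC for its brightest probe set (1417301_at). All shTNC arrays lay above all shControl arrays, but the gap was small. The difference was 0.11 ± 0.08 (unadjusted p = 0.22, adjusted p = 0.60). A further probe set above background (1448662_at) differed by 0.08 ± 0.08 with overlapping groups, and the probe set under the background level (1458904_at) by 0.01 ± 0.12.

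The co-receptors Lrp5 and Lrp6, which share the task of carrying the Wnt signal beside a Frizzled, lay on opposite sides of 0. Lrp5 has 1 probe set (1449299_at), which read 11.75, 11.77 and 11.74 in shControl and 11.58, 11.54 and 11.52 in shTNC. The arrays of each group lay within 0.06 of each other, and the groups did not overlap. The difference was -0.21 ± 0.08, a ratio of 0.867 (unadjusted p = 0.031, adjusted p = 0.34). The size of this difference moved little when any array was left out, from -0.22 to -0.19, but the unadjusted p was then above 0.05 for 5 of the 6 arrays.

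Lrp6 was 11.49, 11.63 and 11.70 in shControl and 11.61, 11.70 and 11.78 in shTNC for its brightest probe set (1428500_at). These groups overlapped, with a difference of 0.09 ± 0.09. The other probe set (1451022_at) read 10.65, 10.66 and 10.56 against 10.76, 10.83 and 10.67, which did not overlap, and differed by 0.13 ± 0.09 (adjusted p = 0.56). Neither Lrp6 probe set reached an unadjusted p under 0.05, and a test of the Lrp5 against the Lrp6 difference was not run.

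**Figure D2:**
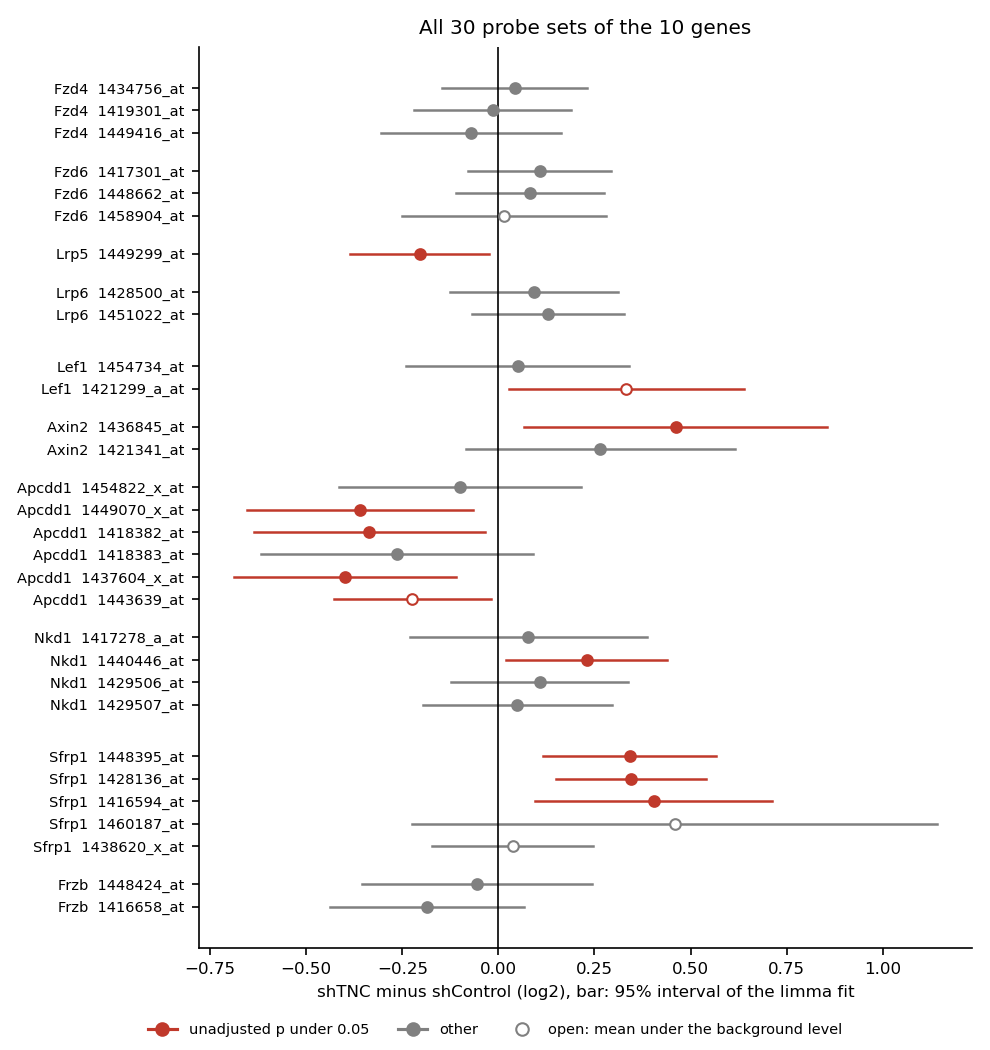
Difference between groups (shTNC minus shControl, log2, x axis) of the 30 probe sets, ordered as receptors, targets and antagonists, with 95% intervals of the limma fit as bars. Red marks an unadjusted p under 0.05 and open circles a mean under the background level. The 6 probe sets of Apcdd1 all lie left of 0, and the 5 of Sfrp1, 4 of Nkd1 and 2 of Axin2 all lie right of it.

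The nuclear factor Lef1 was close to background in these ECs. Its brighter probe set (1454734_at) read 7.92, 8.21 and 7.78 in shControl and 8.03, 7.90 and 8.12 in shTNC. These groups overlapped, and the difference was 0.05 ± 0.13. The dimmer probe set (1421299_a_at), with a mean of 7.18 and so under the background level, was 7.01, 7.20 and 6.84 against 7.58, 7.23 and 7.23. It lay higher in every shTNC array, by 0.33 ± 0.13 (unadjusted p = 0.036, adjusted p = 0.36), although shControl replicate 2 and the lower shTNC arrays were only 0.03 apart.

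Axin2, a scaffold of the destruction complex and the most widely used transcriptional readout of β-catenin, had the largest difference among the brightest probe sets of the 10 genes. That probe set (1436845_at) read 9.55, 9.92 and 9.96 in shControl and 10.50, 10.38 and 9.93 in shTNC. Replicates 1 and 2 of shTNC stood above every shControl array, whereas shTNC replicate 3 lay among them. The difference was 0.46 ± 0.17, a ratio of 1.38 (unadjusted p = 0.027, adjusted p = 0.33).

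The dimmer Axin2 probe set (1421341_at) was 8.49, 9.09 and 8.77 in shControl and 9.10, 9.13 and 8.91 in shTNC. It was likewise higher on average with overlapping groups, by 0.27 ± 0.15 (unadjusted p = 0.12). For both probe sets shControl replicate 1 was the lowest array. Without that array the differences were 0.33 and 0.12, and the unadjusted p of the brighter probe set was 0.10. This p was 0.099 without shTNC replicate 1 and 0.078 without shTNC replicate 2, and stayed under 0.05 without any other array. Without shControl replicate 2 the differences were 0.52 and 0.42.

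The promoter of Axin2 is shown because TCF/LEF factors bind short words of the form CTTTGAT or CTTTGAA, and that of Tnfrsf19, a further target with a higher mean in shTNC, as an example that holds such a word in 1 of its 2 promoters listed. Sequences are from the RefSeq promoter table (GRCm38.p6), 300 bases a promoter from 250 before to 50 after the start site. Either word, on either strand, stood in 8.65% of the 32851 promoters listed. Among the 10 genes, 5 had promoters listed (Fzd4, Lef1, Axin2, Nkd1 and Frzb, with 8 promoters in all), and 0 of these 8 held a word. Of the 80 promoters listed for other Wnt pathway genes, 6 (7.5%) held one. The 120 bases from 250 to 131 before the start follow, in lower case with the word in capitals where present. The Axin2 stretch (chr11:108920099-108920218, plus strand) holds none of these letters, and the Tnfrsf19 stretch (chr14:61038118-61038237, minus strand) holds ATCAAAG, the reverse complement of CTTTGAT, from 202 bases before the start. A match describes letters only, and its absence says nothing of TCF/LEF binding outside this window.
Axin2: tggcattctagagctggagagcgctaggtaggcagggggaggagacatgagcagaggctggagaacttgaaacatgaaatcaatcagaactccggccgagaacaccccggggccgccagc
Tnfrsf19: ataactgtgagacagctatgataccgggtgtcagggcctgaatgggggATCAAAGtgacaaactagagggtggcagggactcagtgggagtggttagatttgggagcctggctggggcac

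Apcdd1, a membrane protein that binds Wnt ligands and LRP co-receptors and inhibits the pathway, was lower in shTNC by all 6 of its probe sets, 4 of them at an unadjusted p under 0.05. The brightest (1454822_x_at) was the exception in size. It read 10.71, 10.45 and 10.75 in shControl and 10.28, 10.71 and 10.62 in shTNC, which overlapped, and differed by -0.10 ± 0.14 (unadjusted p = 0.49). Without shTNC replicate 1, its lowest array, this difference was 0.03.

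For the next in brightness (1449070_x_at), the shControl arrays were 10.51, 10.45 and 10.75 and the shTNC arrays 9.99, 10.27 and 10.37. All shTNC arrays lay below all shControl arrays, by -0.36 ± 0.13 (unadjusted p = 0.022, adjusted p = 0.31). Probe set 1418382_at showed the same order, with 10.40, 10.37 and 10.67 against 9.92, 10.31 and 10.21, and differed by -0.34 ± 0.13 (unadjusted p = 0.033, adjusted p = 0.35). In both, shTNC replicate 1 was the lowest array and shControl replicate 3 the highest.

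Probe set 1437604_x_at read 8.95, 9.38 and 9.00 in shControl and 8.68, 8.79 and 8.67 in shTNC. It did not overlap, and its difference of -0.40 ± 0.13 was the largest of the 6 (ratio 0.758, unadjusted p = 0.013, adjusted p = 0.28). It was also the probe set whose unadjusted p stayed under 0.05 with each array left out in turn. Probe set 1418383_at overlapped, at -0.26 ± 0.15 (unadjusted p = 0.12), and 1443639_at, at a mean of 6.06 and so under the background level, differed by -0.22 ± 0.09. Without shTNC replicate 1, 1437604_x_at was the 1 probe set of the 6 with an unadjusted p under 0.05. Averaging all 6 probe sets before the fit gave -0.28 (unadjusted p = 0.020). The ending _x_at marks probe sets whose probes can also bind other transcripts, and the probe sets of a gene read the same RNA, so their number is no number of replicates.

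Nkd1, which binds Dishevelled and restrains the pathway as a feedback target, was higher in shTNC on average by all 4 of its probe sets. The brightest (1417278_a_at) read 12.09, 12.58 and 12.24 in shControl and 12.48, 12.40 and 12.27 in shTNC, and overlapped, with a difference of 0.08 ± 0.13. Only 1440446_at did not overlap, with 11.72, 11.69 and 11.87 against 11.91, 12.01 and 12.04. It differed by 0.23 ± 0.09, a ratio of 1.17 (unadjusted p = 0.035, adjusted p = 0.35). The other two differed by 0.11 ± 0.10 and 0.05 ± 0.11, each with an interval that spanned 0.

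**Figure D3:**
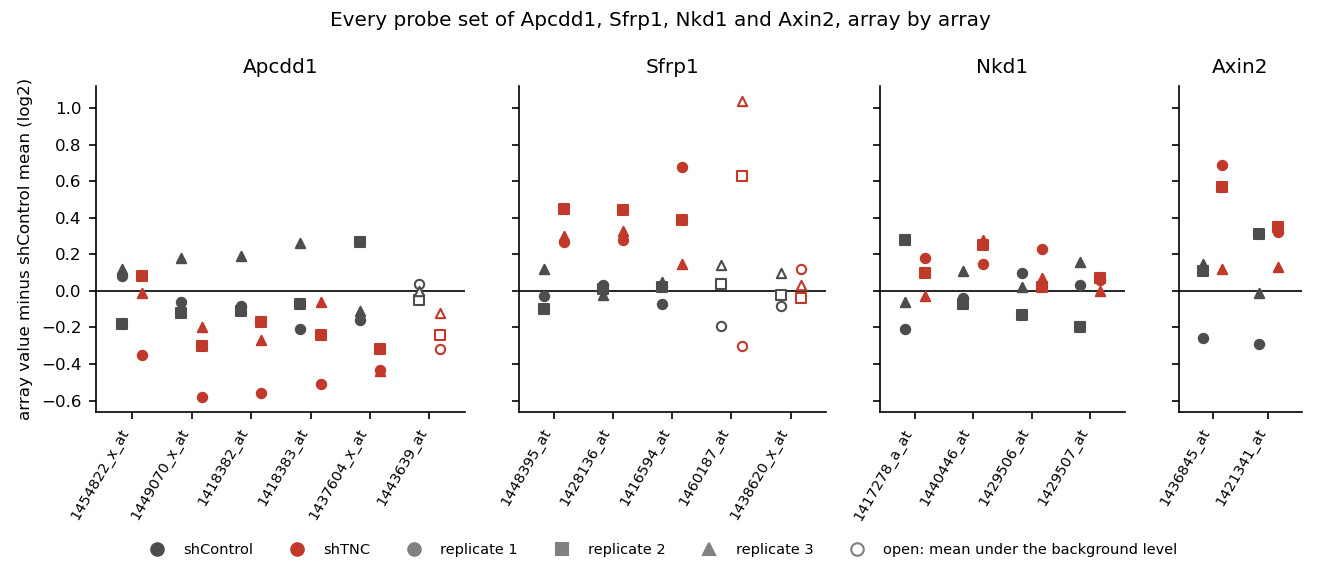
Array values minus the shControl mean of the same probe set (log2, y axis) for every probe set of Apcdd1, Sfrp1, Nkd1 and Axin2 (x axis), shControl in grey and shTNC in red, with marker shapes for replicates and open markers for probe sets under the background level. The 3 filled Sfrp1 probe sets separate the groups, as do 3 filled probe sets of Apcdd1. Axin2 does not, as shTNC replicate 3 lies below the highest shControl array in both of its probe sets, which is shControl replicate 2 in 1421341_at.

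Of the secreted antagonists, Sfrp1 was the member with the smallest p-values. Its probe set 1428136_at read 8.13, 8.11 and 8.08 in shControl and 8.38, 8.54 and 8.43 in shTNC. The shControl arrays lay within 0.05 of each other and every shTNC array stood above them. The difference was 0.35 ± 0.08, a ratio of 1.27 (unadjusted p = 0.0034, adjusted p = 0.23).

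The brightest Sfrp1 probe set (1448395_at) was 8.72, 8.65 and 8.87 in shControl and 9.02, 9.20 and 9.05 in shTNC. It did not overlap either, and differed by 0.34 ± 0.10 (unadjusted p = 0.0079, adjusted p = 0.26). Probe set 1416594_at was 7.57, 7.66 and 7.69 against 8.32, 8.03 and 7.79. It differed by 0.40 ± 0.13 (unadjusted p = 0.016, adjusted p = 0.30), with shTNC replicate 3 only 0.10 above the highest shControl array. The probe sets under the background level differed by 0.46 ± 0.30 and 0.04 ± 0.09, both with overlapping groups. Leaving out each array in turn, the differences of the 3 brighter probe sets ranged from 0.29 to 0.40, from 0.30 to 0.38 and from 0.27 to 0.53.

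Sfrp1 is also made by fibroblasts, so the fibroblast markers are set beside it. The 15 fibroblast genes, all above background, averaged 9.86, 10.01 and 9.50 in shControl and 9.91, 9.96 and 10.30 in shTNC, which overlapped. Their median difference was 0.28, with 2 of 15 higher at an unadjusted p under 0.05 (Gsn at 0.64 ± 0.20 and Mfap4 at 0.74 ± 0.32) and Pdgfra at -0.01 ± 0.25. The 14 pericyte and smooth muscle genes, 13 of them above background, averaged 8.56 to 8.74 in shControl and 8.74 to 8.95 in shTNC. By sign 9 were higher and 5 lower. At an unadjusted p under 0.05, 4 were higher, where 4.54% of all genes were, among them Myh11 at 0.50 ± 0.10 and Cox4i2 at 0.39 ± 0.10. Fibroblast markers were highest in shTNC replicate 3, as was the Sfrp1 probe set 1460187_at under the background level, and the 3 Sfrp1 probe sets above it were highest in shTNC replicates 1 or 2. The part of these cells in the Sfrp1 signal was not tested.

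Frzb, also of the SFRP family, had overlapping groups in both of its probe sets. Its brighter probe set (1448424_at) was 7.69, 7.71 and 7.46 in shControl and 7.72, 7.31 and 7.66 in shTNC, just above background. It overlapped, with a difference of -0.06 ± 0.13 and an interval from -0.36 to 0.24. The dimmer probe set (1416658_at) differed by -0.19 ± 0.11 (unadjusted p = 0.13), with 7.59, 7.69 and 7.47 in shControl and 7.25, 7.38 and 7.57 in shTNC. The Sfrp1 and Frzb differences were not tested against each other.

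The rest of the pathway was read from a list of 100 genes, of which 97 were matched on the array and 77 were above background. With 1 probe set a gene, an unadjusted p under 0.05 was reached by 20 of the 97, compared with 11.7% of all genes. Of these, 11 were lower, where 7.12% of all genes were, and 9 were higher, where 4.54% of all were, and no gene passed after adjustment. The median difference was -0.03, the same to 2 decimals as over all genes. The counts by list that follow are at the same unadjusted limit, to be read against these shares. The list of 100 genes was also chosen with earlier results of these data known, so its counts are description only. Among 24 ligands and R-spondins, 1 was higher and 1 lower. The lower one, Wnt1, had a mean of 6.72, under the background level, and differed by -0.24 ± 0.08. The higher one was Wnt2, a Wnt ligand of the lung, which read 7.72, 7.07 and 7.13 in shControl and 7.90, 7.84 and 7.93 in shTNC. It differed by 0.59 ± 0.17 (adjusted p = 0.26), with 2 of its shControl arrays under the background level. Wnt6 and Rspo2 differed by -0.37 ± 0.17 and -0.25 ± 0.13, and both overlapped. Without shControl replicate 2 these differences were -0.17 and -0.15, and without shControl replicate 3 they were -0.54 and -0.39. The other probe set of each gene lay under the background level, overlapped and differed by -0.09 (Wnt6) and -0.10 (Rspo2).

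Among the other 19 receptors and their helpers, 4 were higher and 0 lower at an unadjusted p under 0.05 (11.7% of all genes), while by sign alone 9 were higher and 10 lower. The 4 included Lgr6, under the background level at a mean of 7.20. Fzd7, a Frizzled of stem and progenitor cells, was 8.00, 7.95 and 8.22 in shControl and 8.52, 8.58 and 8.68 in shTNC by its brighter probe set. The groups stood well apart, at 0.53 ± 0.10 (adjusted p = 0.18), but its other probe set (1450043_at) overlapped and differed by -0.12 ± 0.14. Tspan12, the tetraspanin that assists Fzd4 in Norrin signalling, was 11.13, 11.02 and 10.93 in shControl and 11.47, 11.42 and 11.59 in shTNC. It was higher in every shTNC array, by 0.47 ± 0.09, a ratio of 1.38 (adjusted p = 0.20). Lgr4, a receptor for R-spondins, differed by 0.41 ± 0.12 in its brighter probe set, which also did not overlap. Its other probe set, under the background level, overlapped and differed by 0.19 ± 0.14. Beside the Tspan12 difference, those of its partners Fzd4, Lrp5 and Lrp6 were 0.04, -0.21 and 0.09 in their brightest probe sets. Ndp, the gene of Norrin, had a mean of 6.94, under the background level, and differed by -0.06 ± 0.12.

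Of 25 genes of signal transduction, 5 had an unadjusted p under 0.05 (11.7% of all genes), 4 of them lower and 1 higher, and by sign alone 15 were lower and 10 higher. Axin1, the constitutive relative of Axin2, was 10.71, 10.92 and 10.68 in shControl and 10.39, 10.48 and 10.39 in shTNC. It lay lower in every shTNC array, by -0.35 ± 0.10 (adjusted p = 0.25), while its other probe set differed by -0.10 ± 0.12 and overlapped. Axin1 and Axin2 thus had differences of opposite sign in their brightest probe sets. Dvl2, a Dishevelled that relays the signal from Frizzled, differed by 0.31 ± 0.10, and by 0.14 ± 0.16 with overlapping groups in its other probe set. Tnks, the enzyme that marks Axin proteins for degradation, differed by -0.28 ± 0.09 in its brightest probe set and by -0.14 to 0.04 in the others.

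An unadjusted p under 0.05 was found for 8 of the other 14 targets (11.7% of all genes), with 5 of them lower and 3 higher. Myc, a growth-promoting transcription factor with many inputs besides Wnt, was 10.86, 11.00 and 10.79 in shControl and 9.95, 10.26 and 10.42 in shTNC. It differed by -0.67 ± 0.13 (adjusted p = 0.19), with every shTNC array below every shControl array. The 11 cell cycle genes averaged 10.77 to 11.18 in shControl and 10.32 to 10.39 in shTNC, with 10 of 11 lower at an unadjusted p under 0.05 beside Myc. The part of proliferation in the Myc difference was not tested. Bambi, a decoy receptor that is also a β-catenin target, was 10.97, 11.12 and 10.98 against 10.72, 10.67 and 10.70. Its difference was -0.33 ± 0.08 (adjusted p = 0.24), again with no overlap.

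Nkd2, the relative of Nkd1, was higher in every shTNC array. It read 9.20, 9.47 and 9.30 in shControl and 9.82, 9.79 and 9.84 in shTNC by its brightest probe set, which did not overlap and differed by 0.49 ± 0.10 (adjusted p = 0.19). Its other probe sets differed by 0.20, 0.03 and -0.02 and overlapped. Tnfrsf19, a receptor of the tumour necrosis factor family, differed by 0.51 ± 0.14 in its brightest probe set (adjusted p = 0.25), and by 0.07 in each of the others. The remaining targets at an unadjusted p under 0.05 were Slc2a1 (-0.445), Mfsd2a (-0.29) and Ccnd1 (-0.24), all lower, and Sox17 (0.24), which was higher. The brightest probe sets of the targets named here thus lay on both sides of 0. Axin2, Nkd1, Nkd2, Tnfrsf19 and Sox17 were above it, and Apcdd1, Myc, Bambi, Slc2a1, Mfsd2a and Ccnd1 below it. For Nkd1 and Apcdd1 that sign turned in 1 of the fits with an array left out.

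Among the other 15 antagonists, 1 was lower and 0 higher at the same limit. This was Dkk4, an LRP inhibitor, at 7.57 to 7.73 in shControl and 7.43 to 7.51 in shTNC, a range that crossed the background level. Draxin and Sfrp2 differed by -0.37 ± 0.18 and -0.46 ± 0.27, and both overlapped. The other Draxin probe set (1432152_at) overlapped too, at -0.27 ± 0.11 (unadjusted p = 0.040). Sfrp2, the family member next to Sfrp1 in function, thus had a negative difference with a wide error, with shControl replicate 3 at 8.76 beside 7.86 and 7.68 in the other shControl arrays. Without that array the Sfrp2 difference was -0.13 and that of the brighter Draxin probe set -0.55.

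**Figure D4:**
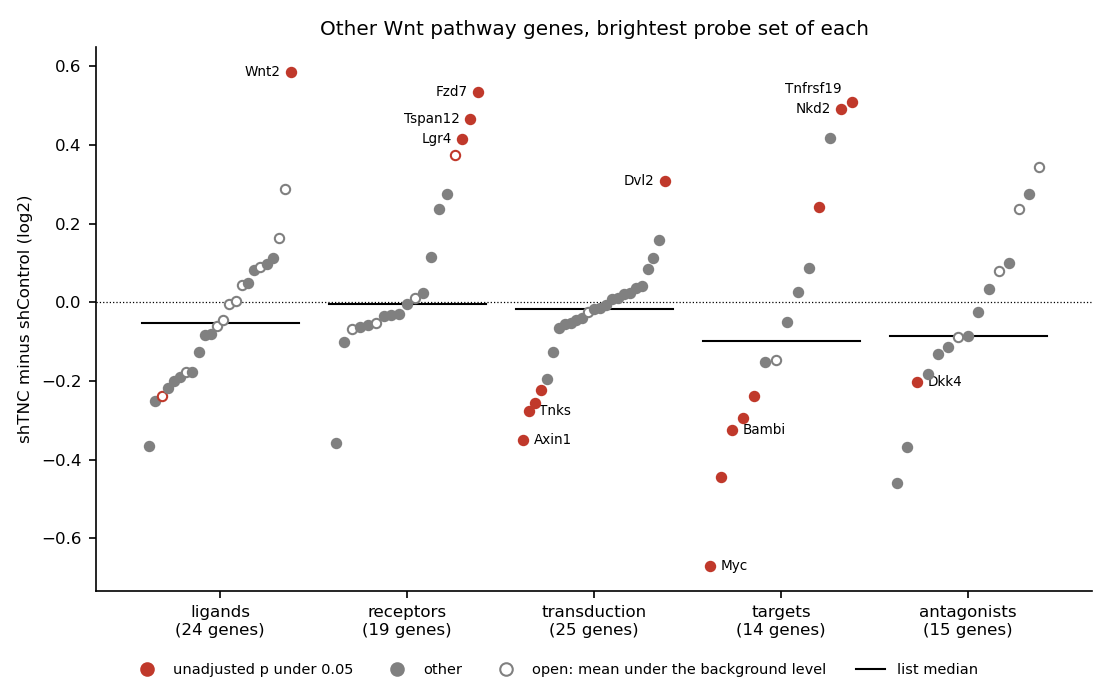
Difference between groups (shTNC minus shControl, log2, y axis) of the 97 other Wnt pathway genes, 1 probe set each, in 5 lists (x axis) and ordered by size within each, with red for an unadjusted p under 0.05, open circles for a mean under the background level and black lines for list medians. The 4 red receptors all lie above 0, and red targets lie on both sides of it, from Myc at -0.67 to Tnfrsf19 at 0.51.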

How the data were processed

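Total RNA (2 ng) of sorted ECs was hybridised to Affymetrix mouse expression arrays, 6 in all. The authors made the deposited log2 values by RMA normalisation in Chipster, and scanner files were not used here. Probe sets were named through the platform annotation, in which 34958 of 45101 had 1 symbol, 932 several and 9211 none. The shTNC and shControl arrays entered a linear model per probe set without covariates (limma 3.58.1, R 4.3.3), with moderated two-sided tests from eBayes and p-values adjusted after Benjamini-Hochberg across the whole array, and the script was tested on simulated data. Arrays hold no read depth, so their number limits the precision, and 3 against 3 cannot go below 0.1 in an exact permutation test. The background level was set at the value under which 95% of the probe sets for olfactory receptors lay. Alternatives were quantile normalization, centring, leaving out dim probe sets, eBayes options, array weights, the replicate number as a block, gene means and leaving out each array. Every member probe set is reported. Each gene is described by its brightest probe set with the others beside it. Of the other Wnt genes, up to 3 a list with the smallest unadjusted p above background, and any under an adjusted p of 0.25, are named. Wnt1, Lgr6, Ndp and the remaining targets at an unadjusted p under 0.05 are given in addition. The members and lists were chosen with earlier results of these data known. Probe sets were ordered by mean signal only to choose the one that describes a gene, and their levels are not otherwise compared.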

Additional observations from a re-analysis of the deposited data

How the results depend on the processing

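With 3 arrays a group, no probe set of the 10 genes passed an adjusted p under 0.05 in any setting run. The brightest probe sets of the other Wnt genes did not pass either. Gene means of the other Wnt genes, and their dimmer probe sets outside the reported fit, were not counted. The differences given are thus estimates with wide errors. Over all probe sets the count at that limit was 0 in the reported fit, 9 with an intensity trend and robust eBayes, and 0 to 4 with an array left out. Quantile normalization and centring on the array median left every count of members unchanged. Leaving out each array in turn, the member probe sets lower at an unadjusted p under 0.05 numbered 1 to 5 and those higher 2 to 6, and with 1 probe set a gene 0 to 1 genes were lower and 1 to 2 higher. The lower probe sets numbered 3 without shControl replicate 1 or shTNC replicate 2, 2 without shControl replicate 3 and 1 without shTNC replicate 1, and the higher ones 2 without shControl replicate 1. The 1 lower gene, Lrp5, had an unadjusted p under 0.05 without shControl replicate 3 but not without any other array, and the higher genes numbered 1 without shControl replicate 1, shTNC replicate 1 or shTNC replicate 2. Of the other Wnt genes, 4 to 14 were lower, with 4 without shTNC replicate 2 and 6 without shTNC replicate 3, and 8 to 13 were higher.

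Whether the replicate numbers pair the arrays is not said by the labels. The deviations of same-numbered arrays from their group means correlated at -0.113, 0.0382 and 0.144, and only replicate 3 correlated best with its own number. With 3 arrays a group such correlations cannot decide whether arrays were paired. With the replicate number as a block, 0 member genes were lower at an unadjusted p under 0.05 instead of 1, and the count over all probe sets went from 5846 to 5737. Averaging the probe sets of a gene, whether all or those above background, gave 2 lower genes (Lrp5 and Apcdd1) and turned Fzd4 to -0.015. Signs turned for differences near 0 when an array was left out. Over these fits Fzd4 1419301_at ranged from -0.044 to 0.034 and Fzd6 1458904_at from -0.078 to 0.090, both turned without shControl replicate 1 (0.024 and -0.078) or shTNC replicate 1 (0.034 and -0.054). Sfrp1 1438620_x_at ranged from -0.004 to 0.086 and turned without the same arrays (-0.002 and -0.004). Nkd1 1417278_a_at ranged from -0.029 (without shControl replicate 1) to 0.216, Nkd1 1429507_at from -0.047 (without shControl replicate 2) to 0.131, and Frzb 1448424_at from -0.137 to 0.068 (without shTNC replicate 2). Apcdd1 1454822_x_at ranged from -0.192 to 0.030 (without shTNC replicate 1), and Lef1 1454734_at from -0.046 (without shControl replicate 3; -0.001 without shTNC replicate 3) to 0.171. The cause of these changes was not tested.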
